A study of Mus musculus with 8 samples.

Results

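Proliferating crypt spots of the mouse intestine were followed here in Visium sections, in which each spot on a slide captures the RNA of the tissue above it. In each section, the spots with at least 500 unique molecular identifiers (UMIs, which count captured RNA molecules) were ranked by the summed UMIs of Mki67, Top2a, Birc5 and Ube2c over all UMIs of the spot, and the top 10% were taken. This gave 893 proliferating spots of 8938 kept spots. There were 209 and 257 of them in small intestine sections 1 and 2, and 209 and 218 in large intestine sections 1 and 2. Every other spot of a section served as the reference. The series held 8 mouse libraries, of which 4 were droplet single-cell libraries and 4 were these sections. The sections were cryosections of 10 µm, cut from the small and the large intestine of C57BL/6 mice and processed with the immunofluorescence version of the Visium protocol. No treatment was labelled for the sections, and the age of the animals was not given in the sources used here. Both sections from 1 tissue are labelled as technical duplicates, so each tissue was 1 sample. No test between spots or tissues was therefore made, and a difference is given by its size in both sections.

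The intestinal epithelium is renewed from crypts, pockets of the gut wall in which stem cells at the base give rise to rapidly dividing transit-amplifying cells. Their daughters stop dividing as they leave the crypt, and they become absorptive or secretory cells of the villus in the small intestine or of the surface in the colon. Paneth cells, which release antimicrobial peptides, sit between the stem cells of the small intestine, and deep crypt secretory cells take that place in the colon. A spot can hold several cells of different types, so the values below describe regions rather than cells. In such pooled RNA, fewer cells of a type and less RNA per cell cannot be told apart.

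Sequencing depth differed between tissues and, in the small intestine, between the groups of spots. The median proliferating spot held 6742 and 4964 UMIs in small intestine sections 1 and 2, against 10500 and 9814.5 in the other spots. Large intestinal medians were 20726 and 22212 UMIs, against 19209 and 19624. Mitochondrial UMIs made up 3.17% to 4.49% of the UMIs of proliferating spots and 5.26% to 6.05% of those of other spots. The part of depth in the differences below was not tested, except where a value or a ranking at equal depth is given. The part of mitochondrial RNA was not tested either, except where CPM were computed without mitochondrial and ribosomal protein genes. Sections of a tissue shared 1223 (small) and 1595 (large) spot barcodes, since the slides use the same grid of barcodes.

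The 4 selecting genes defined the spots, and their levels are given only as a description. Mki67 encodes a protein of dividing chromosomes, Top2a a topoisomerase that untangles DNA, Birc5 (survivin) a subunit of the chromosomal passenger complex, and Ube2c a ubiquitin-conjugating enzyme of mitotic exit. Together they reached 1064 and 992 CPM (UMIs scaled to a common library total, pooled over the spots of a group) in the small intestinal proliferating spots and 876 and 877 CPM in the large intestinal ones. In other spots the sum was 134 and 91.8 CPM (small intestine) and 185 and 186 CPM (large intestine). The lowest proliferating spot of each section stood at 594 to 707 CPM, directly above the highest other spot at 593 to 705 CPM, so the boundary cuts a continuous range. A proliferating spot held a median of 7 and 5 UMIs of these genes in the small intestine and of 18 in both sections of the large intestine. All 4 genes were seen in 48.3% and 25.7% of the small and in 78.0% and 82.1% of the large intestinal proliferating spots. In small intestine section 2, 26 of the 257 spots were chosen on a single UMI.

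Each selecting gene was then left out of the ranking in turn, so that its own level played no part in the choice of spots. The left-out gene was still higher in the spots chosen by the other 3, in all 4 sections. Mki67 had log2 ratios of 2.49 and 2.81 in the small and of 1.72 and 1.81 in the large intestine. Top2a had 2.31 and 2.78 against 1.82 and 1.91. Birc5 had 2.44 and 2.83 against 2.02 and 2.0, and Ube2c had 2.50 and 2.89 against 1.91 and 1.78. In every case both small intestinal sections lay above both large intestinal ones. The 4 genes were therefore concentrated in the same spots of these sections.

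The promoters of the selecting genes and of Cdk1 and Ccnb2, a kinase and a cyclin that drive entry into mitosis, are shown because these genes moved together across spots. Genes of G2 and mitosis often carry a cell cycle genes homology region, which contains TTTGAA and recruits the MuvB complexes, and CCAAT boxes, which bind NF-Y. The lines below give the 200 bases before each RefSeq start site (GRCm38.p6), read 5′ to 3′ on the strand of the gene. Capitals mark TTTGAA or CCAAT, or their reverse complements TTCAAA or ATTGG. In Ube2c, a CCAAT and an ATTGG overlap by 2 bases.
Mki67 (chr7:135716380-135716579, minus strand): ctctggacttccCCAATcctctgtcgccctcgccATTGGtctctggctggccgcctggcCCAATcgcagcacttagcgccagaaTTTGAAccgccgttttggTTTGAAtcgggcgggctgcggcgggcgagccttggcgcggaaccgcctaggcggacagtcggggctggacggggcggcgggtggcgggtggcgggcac
Top2a (chr11:99024190-99024389, minus strand): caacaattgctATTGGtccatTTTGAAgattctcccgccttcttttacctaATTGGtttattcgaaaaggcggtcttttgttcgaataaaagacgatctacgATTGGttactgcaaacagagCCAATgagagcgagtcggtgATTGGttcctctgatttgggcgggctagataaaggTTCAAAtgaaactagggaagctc
Ube2c (chr2:164769729-164769928, plus strand): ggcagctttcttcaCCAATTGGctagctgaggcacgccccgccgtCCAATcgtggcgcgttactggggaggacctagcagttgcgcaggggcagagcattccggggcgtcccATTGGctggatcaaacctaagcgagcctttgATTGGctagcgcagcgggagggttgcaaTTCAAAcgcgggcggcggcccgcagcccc
Birc5 (chr11:117849037-117849236, plus strand): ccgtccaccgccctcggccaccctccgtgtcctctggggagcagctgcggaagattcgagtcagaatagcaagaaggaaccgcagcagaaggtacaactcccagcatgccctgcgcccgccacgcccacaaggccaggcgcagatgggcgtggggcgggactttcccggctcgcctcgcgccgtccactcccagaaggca
Cdk1 (chr10:69352913-69353112, minus strand): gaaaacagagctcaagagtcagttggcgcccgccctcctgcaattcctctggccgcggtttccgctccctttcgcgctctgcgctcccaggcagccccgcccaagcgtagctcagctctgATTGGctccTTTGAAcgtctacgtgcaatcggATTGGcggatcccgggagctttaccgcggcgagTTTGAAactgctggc
Ccnb2 (chr9:70421555-70421754, minus strand): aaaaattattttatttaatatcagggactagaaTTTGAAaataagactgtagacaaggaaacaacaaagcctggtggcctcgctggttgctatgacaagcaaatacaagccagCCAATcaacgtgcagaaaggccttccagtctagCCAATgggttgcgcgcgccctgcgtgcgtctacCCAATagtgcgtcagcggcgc

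Mki67, Top2a, Ube2c, Cdk1 and Ccnb2 carried both motifs in this window, and Birc5 carried neither. Bases after the start site were not searched, so a motif there would not be seen. Over the 250 bases before the start, 18.3% of the 27025 RefSeq genes in the promoter table held TTTGAA on either strand, 37.5% held CCAAT and 6.45% held both. Among the 9645 genes compared in these sections that have an entry, the shares were 12.8%, 40.2% and 4.76%. Of the 35 G2/M list genes with a promoter entry, 11 (31.4%) held TTTGAA, 27 (77.1%) held CCAAT and 10 (28.6%) held both. Of 33 S phase list genes, 4 (12.1%) held TTTGAA, 20 (60.6%) held CCAAT and 3 (9.09%) held both. Among 19 crypt stem list genes, 0 held TTTGAA and 7 (36.8%) held CCAAT. A match of letters is not a bound site, and these shares are a description.

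Genes of mitosis outside the selecting set were higher in the proliferating spots of every section. A gene was called higher or lower when it differed at least 1.5-fold from the other spots in the same direction in both sections of a tissue, among genes with at least 100 UMIs in each of them. By this rule 2994 of 10762 genes (27.8%) were higher and 1852 (17.2%) lower in the small intestine, and 1822 of 11876 (15.3%) were higher and 1351 (11.4%) lower in the large intestine. The median log2 ratio over all these genes was 0.21 and 0.23 in the small and 0.16 and 0.13 in the large intestine. With CPM computed without mitochondrial and ribosomal protein genes, the large intestinal median became 0.26 in both sections and the split moved to 2452 higher and 1109 lower. Because the spots were chosen on genes that act in the same process, these counts describe the spots and support nothing further.

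All 35 G2/M genes compared in the small intestine and all 42 compared in the large intestine were called higher. Their summed level was 2853 and 2532 CPM in small intestinal proliferating spots, against 580 and 429 CPM in other spots. The large intestine held 2788 and 2770 CPM, against 800 and 807 CPM. For this list the proliferating spots of both tissues held similar levels, while the other spots of the small intestine held less than those of the large. Cdk1 stood at 78.2 and 46.6 CPM against 13.2 and 7.94 in the small intestine, and at 107 and 115 against 27.4 and 28.5 in the large, a log2 ratio of 2.57 and 2.55 in the small and of 1.96 and 2.01 in the large. Ccnb1, its cyclin partner, had log2 ratios of 2.64 and 2.89 in the small and of 1.86 and 2.04 in the large intestine. Plk1, a mitotic kinase, had 2.42 and 3.28 against 1.73 and 1.46. Hmgb2, a chromatin protein abundant in dividing cells, reached 720 and 502 CPM against 132 and 79.5 in the small intestine, and 569 and 559 CPM against 158 and 160 in the large.

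Genes of DNA replication followed the same order with smaller ratios. All 34 S phase genes compared in the small and 39 of 40 in the large intestine were called higher, with summed log2 ratios of 1.92 and 2.06 against 1.26 and 1.30. Mcm5, a subunit of the replicative helicase, stood at 75.5 and 56.8 CPM in small intestinal proliferating spots, against 12.7 and 7.19 in other spots. Its large intestinal levels were 48.8 and 48.1 CPM against 16.9 and 18.7. Pcna, the sliding clamp of the replication fork, had log2 ratios of 1.48 in both small and of 0.95 and 1.03 in the large intestinal sections. Rrm2, which makes deoxynucleotides, had 2.31 and 2.68 against 1.46 and 1.34. Ccne2, a cyclin of entry into S phase, had smaller ratios of 0.89 and 0.86 in the small and 0.80 and 0.62 in the large intestine.

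Chromatin and biosynthesis genes were higher as well. The histone list was called higher for 5 of 5 genes compared in the small and 5 of 7 in the large intestine, for example H2afx at log2 ratios of 2.28 and 2.45 in the small and 1.67 in both sections of the large. Ribosome biogenesis genes, which build new ribosomes in the nucleolus, were called higher in 17 of 17 and 18 of 18 cases. Their summed log2 ratio was 1.72 and 1.84 in the small and 1.06 in both sections of the large intestine. Nop56, a core protein of small nucleolar ribonucleoproteins, had log2 ratios of 2.16 and 2.46 in the small and of 1.37 and 1.24 in the large. Nucleotide synthesis genes were called higher for 14 of 16 and 13 of 16 genes. Shmt1, a serine hydroxymethyltransferase that feeds thymidylate synthesis, had log2 ratios of 2.42 and 2.86 against 1.09 and 1.23.

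**Figure D1:**
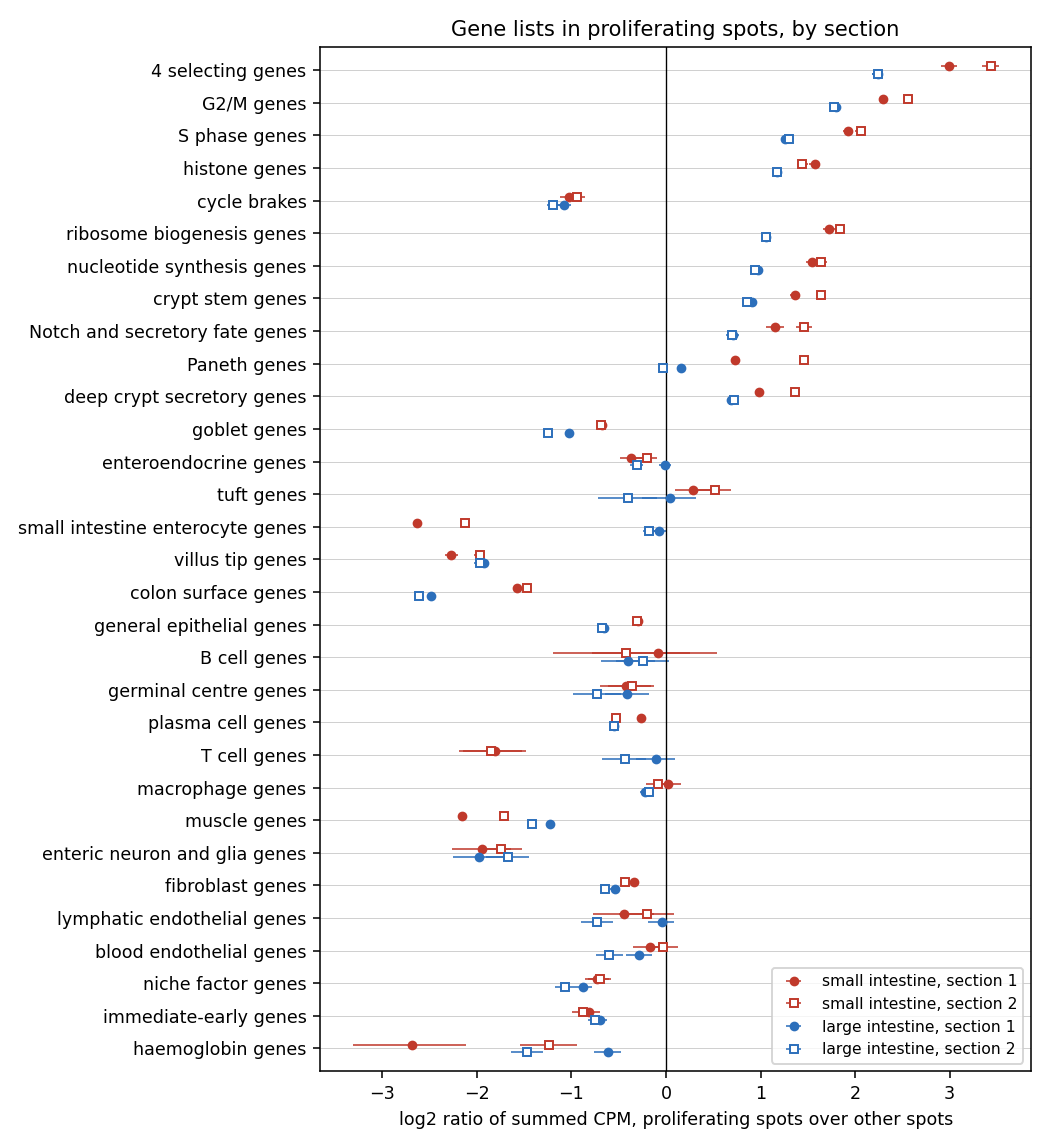
Log2 ratio of the summed CPM of each gene list in proliferating spots over the other spots of the same section (x axis), for the 4 sections (circles and squares, sections 1 and 2; red, small intestine; blue, large intestine). Bars are 95% intervals that cover counting error only. The 4 selecting genes define the spots. The G2/M list stands between 1.78 and 2.56, and the villus tip list between -2.27 and -1.93.

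Genes that restrain the cell cycle did not move as one group. Of 11 brakes, 4 were called lower and 1 higher in the small intestine, and 5 were called lower and 0 higher in the large. Cdkn1a (p21), an inhibitor of cyclin-dependent kinases, stood at 70.1 and 115 CPM in small intestinal proliferating spots against 222 and 295 CPM in other spots. Its large intestinal levels were 45.2 and 42.1 against 255 and 256 CPM, log2 ratios of -2.50 and -2.61. Cdkn2b (p15), another such inhibitor, had -1.93 and -1.80 in the small and -2.49 and -2.06 in the large intestine. Ccng2, an atypical cyclin of quiescent cells, had -2.58 and -2.12 against -2.29 and -2.34. Immediate-early genes respond to signals and handling within minutes. Of 9 compared in the small intestine, 5 were called lower and 1 higher, and of 10 in the large, 7 lower and 1 higher. Fos had log2 ratios of -2.30 and -2.18 in the small and of -2.09 and -2.01 in the large intestine. Ier2 went the other way, with 0.84 and 0.85 against 0.70 and 0.62.

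By a rule of size, 12 genes at each end were named per tissue. Of the 12 highest in the small intestine, 11 are reported here: Sapcd2, E2f8, Kifc1, Melk, Nek2, Gins1, Ndc1, Pclaf, Mad2l1, Spc25 and Pbk. E2f8, a repressor of the E2F family, stood at 40.4 and 41.3 CPM against 5.60 and 4.75 CPM, log2 ratios of 2.85 and 3.12, and Melk, a mitotic kinase, had 2.83 and 3.47. Mad2l1 and Spc25, parts of the spindle checkpoint and of the kinetochore, had 2.68 and 2.97 and 2.88 and 2.66. The 12 highest of the large intestine were Ska3, Hmmr, Cenpf, Aurkb, Ckap2l, Shcbp1, Cenpe, Ccna2, Anln, Kif11, Depdc1a and Sapcd2. Ska3, a kinetochore protein, had log2 ratios of 2.53 and 2.31 at 10.2 and 10.4 CPM. Ccna2, the cyclin of S phase and G2, stood at 147 and 139 CPM against 32.5 and 32.7, and Kif11, a spindle motor, had log2 ratios of 2.14 and 2.04. Sapcd2, a regulator of spindle orientation, was on both lists, with 2.86 and 2.92 in the small and 2.26 and 1.99 in the large intestine.

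The 12 lowest genes in the small intestine were Gal, Ccdc152, Nmu, Gml2, Gml, Atf3, Ido1, Gzmb, Sgk2, Slc7a15, Ceacam18 and Slc6a14. Slc6a14, an amino acid transporter, stood at 27.0 and 42.9 CPM against 305 and 330 CPM. Ido1, which degrades tryptophan, had log2 ratios of -3.58 and -3.00. Gal and Nmu are neuropeptides, and Gal had -4.32 and -3.85. Nmu had -3.22 and -3.19, and its direction turned to 0.82 when spots above their section's median for muscle genes were left out. Lowest of the large intestine were Clca4b, Ifit1bl1, Csta1, Cyp2d12, Slc15a1, Slc34a2, Atp12a, Saa1, Areg, Mgam2-ps, Slc26a3 and Clca4a. Slc26a3, the chloride-bicarbonate exchanger of the colon surface, stood at 55.6 and 53.9 CPM against 571 and 578 CPM. Saa1, an acute-phase protein of the epithelium, stood at 442 and 449 CPM against 4867 and 5322. Areg, a ligand of the EGF receptor, had log2 ratios of -3.54 and -3.43. Reads of close copies such as Clca4a and Clca4b, or Gml and Gml2, could be split by the counting, so single members of these families are uncertain.

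**Figure D2:**
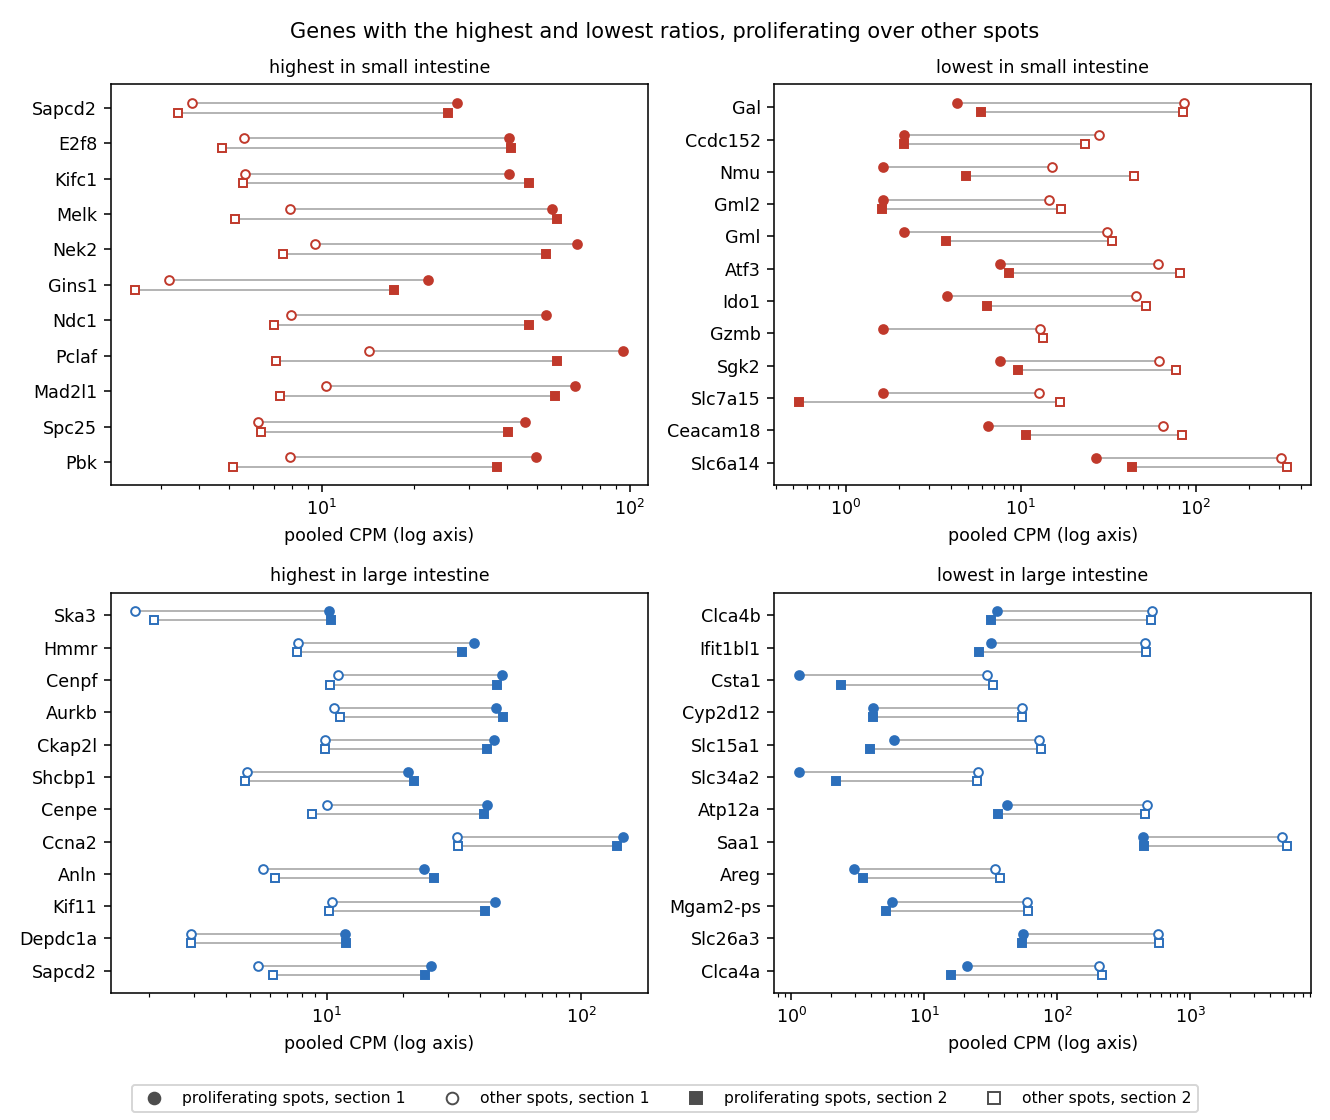
Pooled CPM (x axis, log) of the highest and lowest genes by ratio, 12 in each panel except the highest of the small intestine, where 11 are shown, in proliferating spots (filled) and other spots (open) of sections 1 (circles) and 2 (squares). Gzmb had 0 UMIs in the proliferating spots of small intestine section 2, and that point cannot be drawn on a log axis. E2f8 moves from 5.60 to 40.4 CPM in small intestine section 1, and Slc26a3 from 571 to 55.6 CPM in large intestine section 1.

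Crypt stem genes were higher in the proliferating spots of both tissues, but the list held exceptions. Of 19 genes compared in the small intestine, 14 were called higher and 1 lower, and of 17 in the large intestine, 13 were called higher and 1 lower. The summed level was 2255 and 2375 CPM against 876 and 765 in the small, and 1078 and 1016 CPM against 575 and 562 in the large intestine. Olfm4, a secreted glycoprotein of small intestinal stem cells, reached 845 and 779 CPM against 254 and 147 CPM in the small intestine. At 2000 UMIs per spot, 61.8% and 66.5% of proliferating and 31.7% and 22.5% of other spots held an Olfm4 UMI, and without thinning 85.6% and 80.5% against 66.6% and 51.0%. Olfm4 stayed under the count minimum in the large intestine. Lgr5, the receptor for R-spondins that marks crypt base stem cells, stood at 16.2 and 15.0 CPM against 8.44 and 6.70 in the small intestine. Its log2 ratios of 0.94 and 1.16 rested on 30 and 28 UMIs in the proliferating spots. Large intestinal Lgr5 had 17 and 9 UMIs there and was under the minimum.

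Single crypt genes differed in the size of their ratios. Myc, a transcription factor of growth, stood at 62.5 and 63.3 CPM against 12.3 and 8.86 in the small intestine, with log2 ratios of 2.35 and 2.84, and had 1.27 and 1.28 in the large. Ephb2, a receptor that positions cells along the crypt, had 2.0 and 2.38 in the small and 0.87 and 0.71 in the large intestine. Slc12a2, a sodium-potassium-chloride transporter of crypt cells, had 1.74 and 2.03 against 1.45 and 1.35, and Sox9, a crypt transcription factor, had 1.45 and 2.12 against 0.95 and 0.84. Ascl2, the stem cell transcription factor, was compared only in the large intestine, at 12.7 and 15.3 CPM against 5.51 and 6.07. The Wnt target Axin2 was called higher in the large intestine (1.12 and 0.76) and not in the small (0.08 and 0.53). Smoc2 also was called only in the large intestine, at 1.44 and 1.00 against 0.74 and 0.40. Nkd1, an inhibitor of Wnt signalling, was the 1 list gene called lower, at -1.98 and -1.45 in the small and -1.77 and -1.04 in the large intestine. Its mean ratio became 0.53 and 0.54 without spots above the median for muscle genes.

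Notch and secretory fate genes were called higher for 9 of 11 genes in the small and 6 of 11 in the large intestine. Notch1, a receptor active in crypt progenitors, had log2 ratios of 1.49 and 1.36 in the small and 1.07 and 0.93 in the large intestine. Its ligand Dll1 had 1.19 and 1.60 against 1.10 and 0.93. Dll4, another ligand, was lower in the small intestine (-1.15 and -0.81) and higher in the large (0.66 and 0.80). Atoh1, the factor that commits cells to secretory fates, had 1.01 and 1.17 in the small intestine and no call at 0.54 and 0.41 in the large. Spdef, which acts below it in goblet and Paneth cells, had 1.43 and 2.01 against 0.86 and 0.70.

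Secretory genes gave mixed calls. Paneth genes summed to 88237 and 75862 CPM in small intestinal proliferating spots against 53054 and 27581 CPM in other spots. Section 2 therefore had the larger log2 ratio, 1.46 against 0.73, and only 6 of 14 Paneth genes passed the call in both sections. Defa24, an alpha-defensin, had 0.84 and 1.54, and Mmp7, the protease that activates defensins, had 0.92 and 1.56. Alpha-defensins are a family of close copies, so the split among them is uncertain. Of the deep crypt secretory genes, 5 of 7 were called higher in the small intestine, with 2 without a call, and 6 of 7 in the large. The remaining gene of the large intestine, Sval1, was called lower, at -0.69 and -0.62. Reg4, their marker in the colon, stood at 398 and 386 CPM against 163 and 156 in the large intestine. Agr2, a protein-folding factor of mucus cells, had log2 ratios of 1.75 and 1.95 in the small and of 0.70 and 0.80 in the large intestine, and Spink4 had 0.88 and 1.28 against 0.78 and 0.80. The goblet list gave 3 of 9 genes lower and 1 higher in the small and 5 of 9 lower in the large intestine. The other 5 and 4 had no call. Muc2, the main gel-forming mucin, had log2 ratios of 0.08 and 0.28 in the small and 0.35 and 0.13 in the large intestine. Zg16, a lectin of mature goblet cells, had -3.24 and -2.63 against -3.00 and -3.12, and Tff3, a trefoil peptide, had -0.70 and -1.07 against -2.02 in both.

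The lists did not all follow the share of the selecting genes evenly. Spots of each section were ordered into those without a UMI of the selecting genes, the lower and upper part of the remaining other spots, and the lower and upper part of the proliferating spots, each divided at its median. The G2/M sum in small intestine section 1 went through 349, 402, 1142, 2555 and 3185 CPM along this order, and increased at every step in the other 3 sections too. The Paneth sum went through 32297, 40374, 98804, 104747 and 69839 CPM in section 1 and 16672, 17359, 70601, 90756 and 63292 CPM in section 2, highest in the lower part of the proliferating spots. The muscle sum was highest just below the boundary, at 13770 and 18584 CPM in the small intestine, and was 3028 and 6416 CPM in the lower part of the proliferating spots. Lymphatic endothelial genes also were highest just below the boundary, with 99.3 and 138 CPM (small intestine) and 147 and 168 CPM (large intestine). In the lower part of the proliferating spots they stood at 46.0 and 65.6 CPM (small) and 145 and 79.7 CPM (large), so large intestine section 1 showed almost no step at the boundary. In the upper part they stood at 46.7 and 49.4 CPM (small) and 76.3 and 47.4 CPM (large). The median depth of the groups differed, from 5795 to 13884.5 UMIs in small intestine section 1, and its part was not tested.

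**Figure D3:**
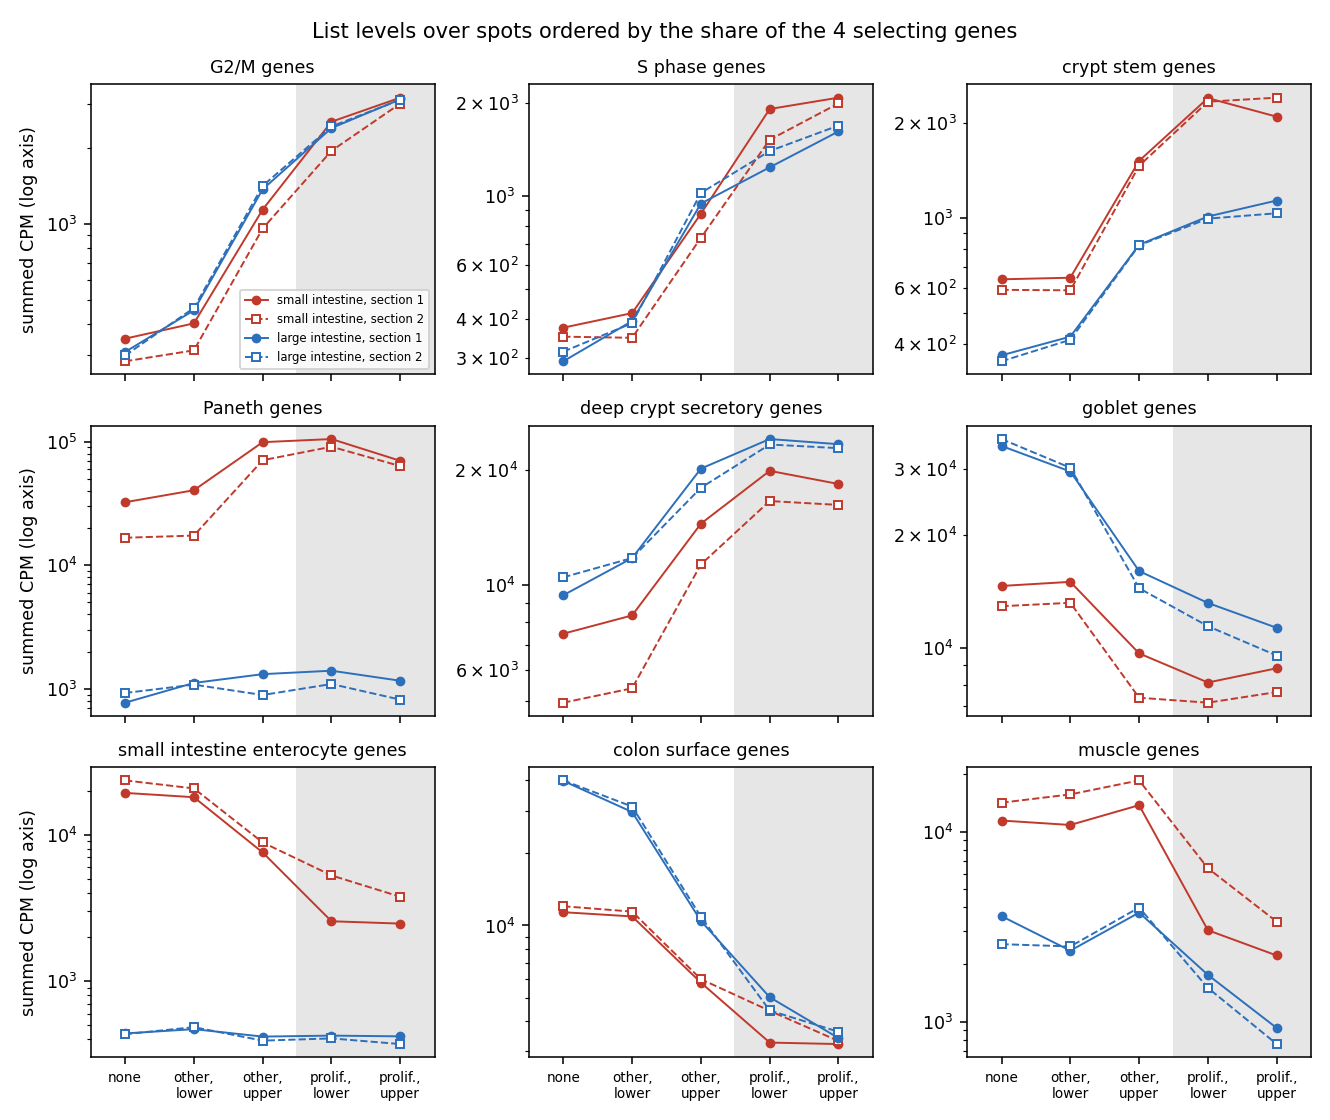
Summed CPM (y axis, log) of 9 gene lists in spots ordered by the share of the 4 selecting genes (x axis): spots with no UMI of them, the lower and upper part of other spots with a UMI, and the lower and upper part of the proliferating spots (grey). Each line is 1 section. G2/M genes climb at every step, Paneth genes peak at 104747 CPM in the lower part of the proliferating spots of small intestine section 1, and muscle genes drop across the boundary.

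Genes of absorptive cells were low in the proliferating spots of their own tissue. Small intestinal enterocyte genes summed to 2517 and 4450 CPM against 15679 and 19468 CPM in the small intestine, and 14 of 15 compared genes were called lower. Apoa1, an apolipoprotein, stood at 387 and 851 CPM against 3973 and 4741. Fabp2, an intracellular fatty acid carrier, had log2 ratios of -3.29 and -2.67, and Sis, the sucrase-isomaltase of the brush border, had -2.77 and -2.33. Of the colon surface genes, 12 of 13 were called lower in the large intestine, at 4192 and 4049 CPM against 23532 and 24745 CPM. Car4, a carbonic anhydrase, had -3.04 and -3.28 there and -1.58 and -1.28 in the small intestine, and the water channel Aqp8 had -2.94 and -3.04 in the large intestine. Guca2b, which encodes uroguanylin, was the exception, higher in the large intestine at 36.8 and 33.9 CPM against 16.5 in both. Krt20, a keratin of the villus and surface, had -2.58 and -2.24 in the small and -3.18 and -3.31 in the large intestine. Creb3l3, a villus tip transcription factor, had -4.11 and -2.40 in the small intestine.

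Of 12 general epithelial genes, 2 were called higher and 2 lower in the small intestine, and 0 higher and 5 lower in the large. They summed to 10534 and 9919 CPM against 12924 and 12263 CPM in the small, and to 9506 and 9665 CPM against 14990 and 15402 CPM in the large intestine. Epcam, an adhesion protein of all epithelial cells, had log2 ratios of -0.38 and -0.45 in the small and -0.06 in both sections of the large intestine. Vil1, of the brush border, had -1.71 and -1.61 against -0.97 and -1.09. Cdx1, a homeobox factor of the intestinal crypt, had 1.39 and 1.57 in the small intestine and 0.51 and 0.56 in the large. Between 7.34% and 19.1% of proliferating spots stood above their section's median for this list. The other spots also include muscle and stroma, so the whole comparison was repeated against those other spots that lay above their section's median for epithelial genes, while all proliferating spots were kept. Against them, the cycle genes outside the selecting set had mean log2 ratios of 2.66 in the small and 2.39 in the large intestine, in place of 2.23 and 1.59.

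Markers of lymphoid follicles, whose germinal centres also hold dividing cells, gave no higher call. The B cell genes summed to 11.9 and 9.65 CPM against 12.6 and 13.0 CPM in the small, and to 25.2 and 25.5 CPM against 33.2 and 30.1 CPM in the large intestine. Against epithelium-rich spots the B cell list of the small intestine had a mean of 0.30 in place of -0.26. Only 2 of 12 B cell genes reached the count minimum in each tissue, and Cd79a, part of the B cell receptor, had log2 ratios of -0.80 and -0.79 in the small and -0.10 and -0.25 in the large. Ms4a1 and Pax5, which define B cells, had 0 to 2 UMIs each in the proliferating spots of a section. Germinal centre genes had summed log2 ratios of -0.43 and -0.36 against -0.41 and -0.73. Leaving out the spots richest in B cell and germinal centre genes gave 1.61 for the cycle genes of the large intestine, against 1.59 with them. Of the T cell genes, 8 of 8 were called lower in the small and 1 of 8, Gzma, in the large intestine. Gzma, a granzyme of intraepithelial lymphocytes, stood at 17.8 and 20.9 CPM against 87.6 and 85.4 CPM in the small and at 7.03 and 6.26 CPM against 11.8 and 12.3 in the large intestine.

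Of the muscle genes, 10 of 10 were called lower in both tissues by their pooled levels. Counted by spot the gap was small, since 46.9% and 43.6% (small) and 42.6% and 38.1% (large) of proliferating spots stood above their section's median for this list, against 50.3% to 51.3% of other spots. They summed to 2651 and 4757 CPM against 11816 and 15653 CPM in the small, and to 1328 and 1151 CPM against 3115 and 3080 CPM in the large intestine. Actg2, a smooth muscle actin, had log2 ratios of -2.39 and -1.90 in the small and -1.43 and -1.51 in the large, and Acta2 had -1.96 and -1.58 against -1.16 and -1.31. Against the other spots rich in epithelial genes, the muscle list had a mean of 0.85 in the small intestine and -0.01 in the large. Enteric neuron and glia genes behaved alike, called lower for 6 of 7 and 7 of 8 genes. Their means of -1.84 and -1.83 turned to 1.07 and 0.02 against the epithelium-rich spots. That reference selects against spots rich in muscle or nerve, and the proliferating spots, most of which lie below the same epithelial median, were not filtered alike. A shift of these ratios upwards is therefore built into it.

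Lymphatic endothelial genes, the vessel class of the study's title, showed no common call. None of the 5 genes compared was higher in either tissue, and 1 was lower in the small intestine. They summed to 46.4 and 56.8 CPM against 62.9 and 65.2 CPM in the small, and to 109 and 64.3 CPM against 113 and 106 CPM in the large intestine. Lyve1, a hyaluronan receptor of lymphatic vessels, had 4 and 5 UMIs in the small intestinal proliferating spots, and its call of lower turned to a mean of 0.36 against epithelium-rich spots. Reln, a secreted glycoprotein of lymphatic endothelium, had log2 ratios of -0.70 and 0.71 in the small and of -0.04 and -0.12 in the large intestine. Against epithelium-rich spots, the lymphatic list had means of 1.71 in the small and 1.57 in the large intestine, in place of -0.32 and -0.39. Its means were also above 0 without spots above the median for muscle genes (1.12 and 0.54). The same held with spots ranked after thinning (0.31 and 0.05) and with the top 20% of spots (0.49 and 0.05). Between sections of the large intestine the ratio of the lymphatic list ranged from -0.05 to -0.73.

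Among secreted niche factors, 11 of 19 genes were called lower and 2 higher in the small intestine, and 10 of 19 lower and 0 higher in the large. The higher ones were Wnt3, a Wnt ligand made by Paneth cells, at 0.63 and 1.5, and Bmp7, a bone morphogenetic protein, at 1.27 and 1.12. Wnt3 was below the minimum in the large intestine, where Bmp7 had -0.23 and -0.38. Bmp2, a differentiation signal of the upper epithelium, had -1.79 and -1.67 in the small and -2.53 and -2.49 in the large intestine. Ereg, a ligand of the EGF receptor, was lower too, with -1.19 and -1.52 in the small and -0.94 and -0.65 in the large intestine. Grem1, an antagonist of bone morphogenetic proteins from muscle and stroma, had -1.93 and -1.48 in the small and -0.72 and -0.69 in the large, and turned to means of 1.07 and 0.99 against epithelium-rich spots. Rspo3, an R-spondin that sustains Wnt signalling in the crypt, was seen in proliferating spots with 6 and 3 UMIs (small intestine) and with 11 and 8 UMIs (large intestine). It was called lower in the small intestine, at -1.2 and -2.30, and its mean became 1.77 against epithelium-rich spots.

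The proliferating spots also differed among themselves. When those of a small intestinal section were split at their median for Paneth genes, the Paneth-rich spots held more crypt stem genes, at 2833 and 2960 CPM against 1625 and 1671 CPM. The G2/M sum was lower in them by log2 ratios of -0.27 and -0.19, and the S phase sum was higher by 0.16 and 0.22. In the large intestine, spots were split by deep crypt secretory genes. The rich spots held 20915 and 16856 CPM of goblet genes against 4899 and 4790 CPM, and fewer plasma cell genes, at 15049 and 17180 CPM against 32232 and 27979 CPM. Stem genes differed less there, at 1163 and 1108 CPM against 1006 and 932. The compared spots differed in depth as well. The Paneth-rich spots of the small intestine had medians of 6560.5 and 5848 UMIs against 7018 and 4161, and the deep-crypt-rich spots of the large had 18586.5 and 20281 against 21591 and 24302. The part of depth was not tested. Lymphatic endothelial genes went with muscle genes: in the large intestine, the muscle-rich spots held 243 and 129 CPM of them against 23.5 and 13.8 CPM, and in the small intestine 65.4 and 95.5 against 37.7 and 43.7 CPM.

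Ranking the spots by other lists gave overlapping but not identical regions. Of the proliferating spots, 61.5% to 64.6% were also in the top 10% of their section by G2/M genes. For S phase genes the share was 56.9% and 54.5% in the small and 36.4% and 36.2% in the large intestine. For crypt stem genes it was 35.4% and 38.1% against 24.4% and 29.8%. By goblet genes it was 0%, 0%, 0% and 0.917%. The spots with at least 2000 UMIs were also thinned to that depth and ranked again. Of the spots then ranked highest, 60.2% and 59.5% (small intestine) and 46.6% and 47.9% (large intestine) were proliferating spots of the full ranking. Below that depth lay 10 and 36 proliferating spots of the small and 0 and 4 of the large intestine, which could not be chosen again. The thinned boundary lay at 1 or 2 UMIs, with 141 to 442 spots tied on it, so the choice of single spots is not firm at this depth.

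The ratios were larger in the small than in the large intestine for most growth lists. Over the G2/M and S phase genes together, log2 ratios were 2.13 and 2.33 in the small and 1.59 in both sections of the large intestine, a difference of 0.64. Their summed levels in proliferating spots were 4838 and 4303 CPM (small) and 4220 and 4304 CPM (large). For S phase genes alone they were 1985 and 1772 CPM (small) against 1432 and 1534 CPM (large), a 1.27-fold difference without overlap of the sections. In the other spots the small intestine held less, for G2/M genes 580 and 429 CPM against 800 and 807, and for S phase genes 525 and 425 CPM against 599 and 622. Averaging the CPM of single spots gave 0.40 for the difference, and taking epithelium-rich spots as the reference gave 0.27. Of genes compared in both tissues, 1314 were called higher in both, which was 44.4% of the small and 87.3% of the large intestinal calls. Of 1655 lower calls in the small and 1169 in the large intestine, 839 were shared, 50.7% and 71.8% of them.

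Few genes pointed in opposite directions, with 17 called higher in the small and lower in the large intestine and 13 the reverse. Ratios were higher in the small intestine by at least 1.5-fold in every pair of sections for 953 of 10433 genes (9.13%), and higher in the large for 526 (5.04%). Prdx6, a peroxiredoxin, stood at 217 and 178 CPM against 130 and 101 in the small, and at 435 and 422 CPM against 3077 and 3193 in the large intestine. Dmbt1, a secreted scavenger protein of mucosa, stood at 2173 and 1690 CPM against 875 and 599 in the small, and at 2247 and 2031 CPM against 4405 and 4317 in the large. Adamdec1, a secreted metalloprotease, had log2 ratios of 1.16 and 1.52 in the small and -1.12 and -0.97 in the large intestine, and Hsd11b2, which inactivates glucocorticoids, had 1.60 and 1.94 against -0.52 and -0.64. In the other direction, Ada, an adenosine deaminase, stood at 29.7 and 62.2 CPM against 199 and 309 in the small and at 20.0 and 20.1 CPM against 13.1 and 13.7 in the large intestine. The brush border peptidase Dpp4 had -2.57 and -2.22 against 0.79 and 0.32, and Asah2, a ceramidase, had -2.43 and -2.36 against 0.52 and 0.42. Prom1, a membrane protein of the crypt, had 1.10 and 1.40 against -0.29 and -0.23.

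**Figure D4:**
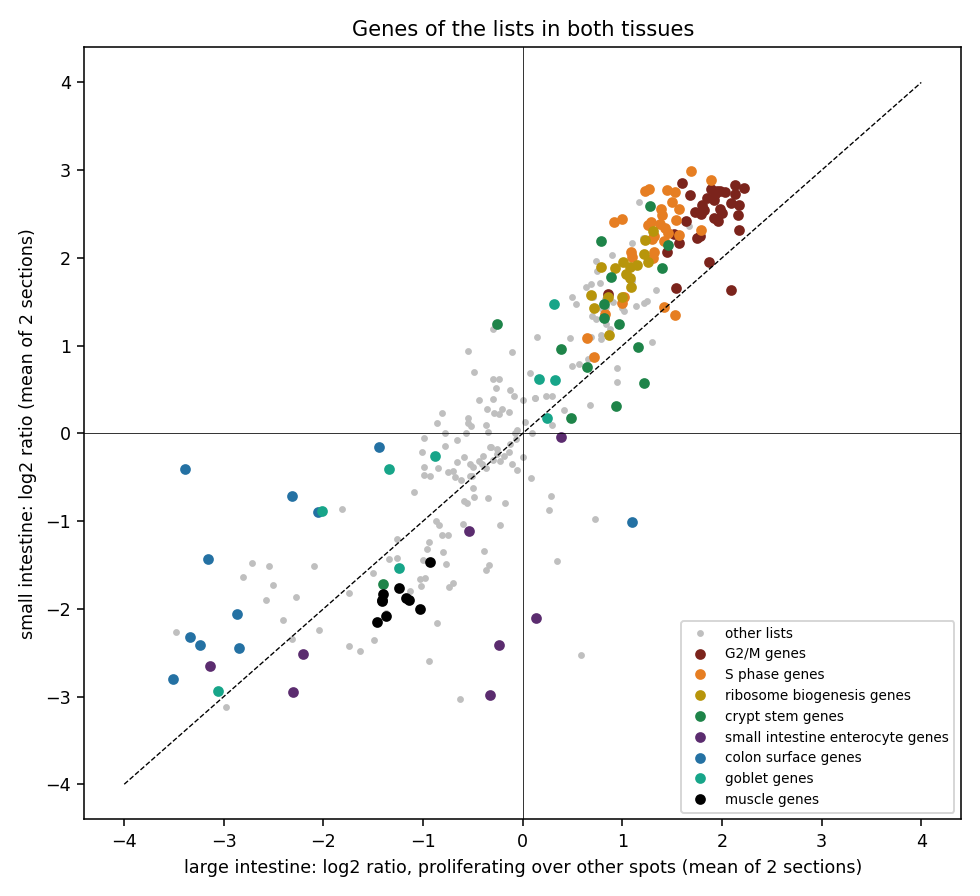
Mean log2 ratio of proliferating over other spots in the large (x axis) and small intestine (y axis) for the 313 entries of list genes compared in both tissues, coloured by list. The dashed line marks equal ratios. Cell cycle and ribosome biogenesis genes sit mostly above it, as Mcm5 does with 2.58 and 2.98 in the small against 1.53 and 1.36 in the large intestine, while enterocyte genes fall below it and colon surface genes mostly above.

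The same genes were then read in the 2 single-cell libraries of sorted tissue, 1 per tissue. These came from C57BL/6 and Lgr5-eGFP-ires-CreERT2 mice and were sorted to enrich for LGR5+ stem cells and lymphatic endothelial cells, so shares of cells in them are set by the sort. Of 8842 small and 8646 large intestinal cells, 1511 and 4667 passed the filters and an epithelial gate, and doublets were not removed. The top 10% by the 4 selecting genes, 151 and 467 cells, are called cycling cells. Their median depth was 35592 and 37289 UMIs, against 25780 and 24937 in the remaining cells, and its part was not tested. In the small intestine 37.8% of compared genes were at least 1.5-fold higher and 14.7% lower in cycling cells, and in the large intestine 8.54% and 16.2%. All 12 highest spot genes of each tissue were higher in its cycling cells, but the cells were chosen on the same 4 genes as the spots, so this count is no independent support. Of the 12 lowest spot genes, only 4 could be compared in the small intestine, and these 4 were lower, as were 11 of 12 in the large. These counts are no independent support either, for the same reason. The genes named for their difference between tissues did not follow the spots as closely. Of those with the higher ratio in the small intestine, 3 of 7 were higher and 2 lower in small intestinal cells, and 2 of 8 were higher and 4 lower in large intestinal cells. Of those with the higher ratio in the large intestine, 6 of 8 were lower in small intestinal cells, and 0 of 7 were called in large intestinal cells. Adamdec1 had -3.71 in small intestinal cells, where 1 UMI was seen in cycling cells, against 1.16 and 1.52 in the spots. Dmbt1 had 0.61 in large intestinal cells against -0.97 and -1.09 in the spots.

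Paneth and deep crypt secretory genes had ratios of opposite sign in the small intestinal spots and cells, while goblet genes were below 0 in both. Goblet genes had log2 ratios of -4.20 in small and -1.91 in large intestinal cells. Paneth genes had log2 ratios of 0.73 and 1.46 in the small intestinal spots and of -5.44 in the cells, where cycling cells held 3547 and the remaining epithelial cells 153825 CPM. Deep crypt secretory genes had 0.99 and 1.36 in the spots and -3.92 in the cells of the small intestine, and 0.68 and 0.72 against -1.25 in the large. Atoh1 likewise had -2.18 in the small intestinal cells, against 1.01 and 1.17 in the spots. Crypt stem genes were higher in both readouts of the small intestine, at 1.36 and 1.63 in spots and 1.65 in cells, and Olfm4 had 1.86 in the cells. In the large intestine the stem list had 0.91 and 0.86 in spots and 0.23 in cells. Ribosome biogenesis genes had 1.06 in both large intestinal sections and 0.27 in its cells, and S phase genes had 1.26 and 1.30 against 0.44. Of the 40 S phase genes compared in the large intestinal cells, 14 were higher and 10 lower in cycling cells. Cdkn1a was lower in both readouts, at -1.71 in small and -2.80 in large intestinal cells. Ccng2, low in the spots of both tissues, had 0.61 and 0.58 in the cells.

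**Figure D5:**
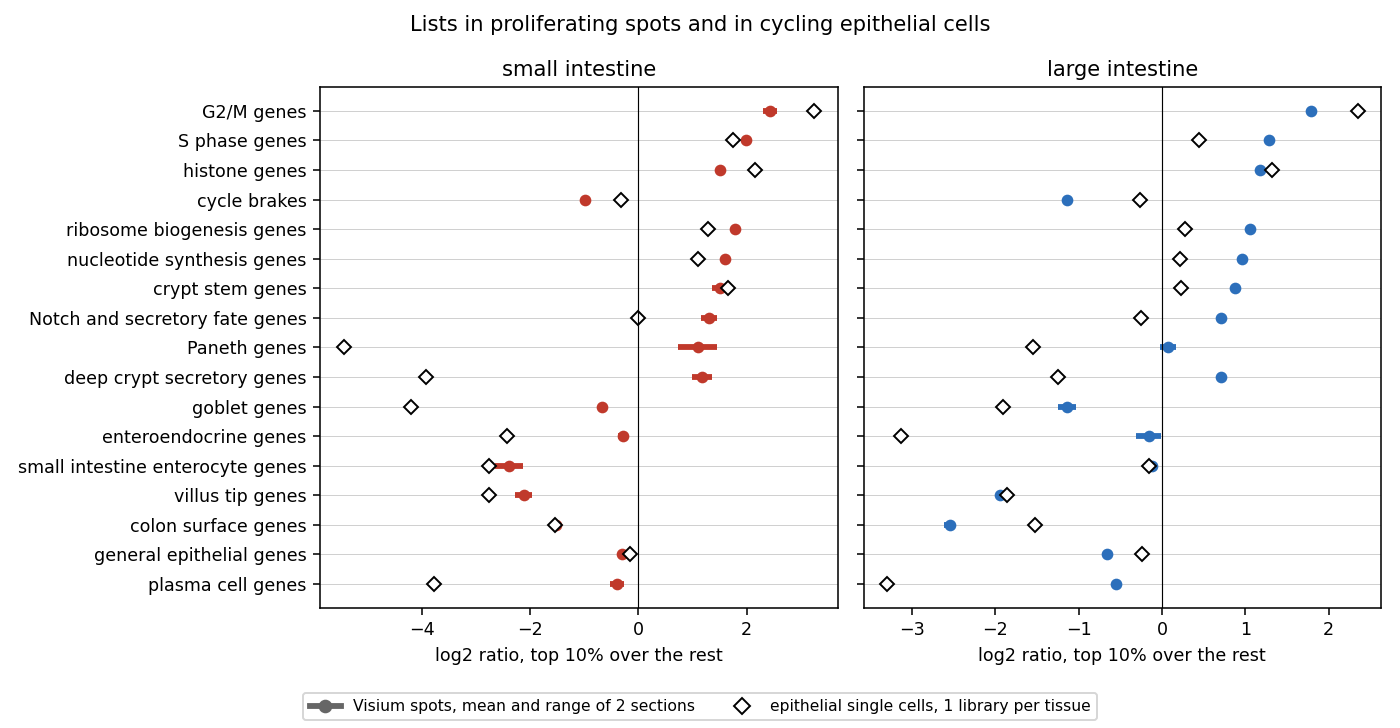
Log2 ratio (x axis) of 17 gene lists in the top 10% over the rest, for Visium spots (coloured points, mean of the 2 sections with their range) and for epithelial cells of the single-cell libraries (open diamonds), in the small (left) and large intestine (right). G2/M genes are high in both, while Paneth genes lie at -5.44 in small intestinal cells and at 0.73 and 1.46 in the spots.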

How the data were processed

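The deposited Visium and single-cell matrices hold raw UMI counts per gene and barcode, written by Space Ranger 1.2.1 and Cell Ranger 6.0.1 per the file headers. The submitters' processing notes name the mm10 build. Counts of a group of spots were summed and scaled to CPM, and groups were compared as log2 ratios within a section. The 95% intervals are exact for counting error only, and UMI counts under 3 were set to 3 for a ratio. The calling script was tested on simulated data. The members and the 31 gene lists (420 genes) were chosen with earlier results of these data known. Besides list genes, the text names, per tissue, the 12 highest and 12 lowest genes with at least 100 UMIs in each section and 30 in the higher group, ranked by the section nearer to 0, and the 8 genes at each end of the difference between tissues. Selecting, mitochondrial, ribosomal protein, immunoglobulin variable and sex-linked genes and unnamed gene models were left out of that naming, and 1 gene that the rule names is not reported here. Spots were not thinned unless stated. Single cells needed at least 500 genes, at most 20% mitochondrial UMIs, at least 5 UMIs of general epithelial genes and no Ptprc UMI. Spot positions and the organoid libraries were not used here. Python 3.11.15, numpy 2.4.6, scipy 1.17.1, pandas 2.3.3 and matplotlib 3.10.9 were used.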

Additional observations from a re-analysis of the deposited data

Results flagged for a closer look

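For 19 named genes the ratio of proliferating over other spots pointed one way in both small intestinal sections and the other way in both large intestinal ones. These differences between tissues were not tested, since each tissue was 1 sample. The values are log2 ratios of the small minus the large intestine. Higher in the small intestine were Prdx6 by 3.65, Hoxb5 by 2.85, Adra2a by 2.81, Slc5a3 by 2.60, Dmbt1 by 2.43, Adamdec1 by 2.38, Hsd11b2 by 2.35, Prom1 by 1.51 and Bmp7 by 1.5. Lower in the small intestine were Smpx at -3.32, Ada at -3.11, Dpp4 at -2.95, Asah2 at -2.86, Slc6a20a at -2.84, Pepd at -2.65, Tmsb15b2 at -2.59, Acsl5 at -2.50, Guca2b at -2.11 and Dll4 at -1.71. Some sizes rest on few UMIs in the proliferating spots of a section. Tmsb15b2 had 3 and 2 and Smpx 4 and 7 in the small intestine, and Hoxb5 had 6 and 3 and Adra2a 8 and 16 in the large. Smpx and Hoxb5 changed direction in 1 tissue when spots above the median for muscle genes were left out, to 0.10 in the small and 1.29 in the large intestine.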

How the results depend on the processing

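No paired analysis was possible because the results come from no test and each tissue was 1 sample cut as technical duplicates. Among the 5 main results, the cycle gene ratios and their difference between tissues kept their sign under every alternative run. Within a tissue this sign was largely set by choosing spots on genes of the same process. The other main results are counts of higher genes, which have no direction to keep. The mean log2 ratio of cycle genes outside the selecting set was 2.23 in the small and 1.59 in the large intestine. It became 1.87 and 1.47 with the mean CPM of spots, and 2.66 and 2.39 against epithelium-rich spots. With spots ranked after thinning, but ratios taken from their full counts, it was 1.80 and 1.2. Without spots above the median for muscle genes it was 2.56 and 1.84. In the large intestine it was also 1.71 without mitochondrial and ribosomal protein genes, 1.67 and 1.63 with the top 20% and 5% of spots, 1.61 without spots rich in B cell and germinal centre genes, and 1.57, 1.55, 1.57 and 1.58 when Birc5, Mki67, Top2a or Ube2c was left out of the ranking. The difference of 0.64 between tissues became 0.40 with the mean CPM of spots, 0.27 against epithelium-rich spots and 0.42 with the top 20%, and ranged from 0.54 to 0.74 when 1 section was left out. The counts of higher genes, 2994 and 1822, became 1376 and 1105 with at least 500 UMIs per section, 8185 and 5996 with no minimum, and 4584 and 3533 against epithelium-rich spots. Ranking after thinning gave 1199 in the large intestine. With 1 section per tissue the counts were 3459 to 3763 and 2380 to 2403.

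Against epithelium-rich spots, a reference filter that was not applied to the proliferating spots, the direction reversed in the small intestine for Acta2 (0.91), Actg2 (0.78), Grem1 (1.07), Lyve1 (0.36), Nkd1 (0.92), Nmu (0.49), Rspo3 (1.77), muscle (0.85), neuron and glia (1.07) and haemoglobin genes (0.03). In the large intestine it reversed for Acta2 (0.02), Grem1 (0.99), Nkd1 (0.20), Nmu (0.20) and neuron and glia genes (0.02). Without spots above the median for muscle genes it reversed in the small intestine for Acta2 (0.43), Actg2 (0.20), Grem1 (0.20), Lyve1 (0.09), Nkd1 (0.53), Nmu (0.82), Rspo3 (1.69), Smpx (0.10) and muscle genes (0.34), and in the large for Gal (2.26), Grem1 (0.49), Hoxb5 (1.29), Nkd1 (0.54) and Nmu (2.08). Grem1 in the large intestine was 0.02 with spots ranked after thinning, and Lyve1 in the small was 0.29 with the top 20%. Lists without a common call also changed sign against epithelium-rich spots: lymphatic endothelial (1.71 in the small and 1.57 in the large intestine), macrophage (1.00 and 0.09), and, in the small intestine, fibroblast (1.44), blood endothelial (0.75), B cell (0.30) and plasma cell genes (0.08). The cause was not tested. Over all lists and genes, those named here included, 540 of 900 list values and 2209 of 3613 gene values moved by less than the spread between sections. The shallow spots of the small intestine, with a median of 7 and 5 UMIs of the selecting genes, limit how firmly single spots are placed.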
